A study of Mus musculus with 1279 samples.

Results

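Fibroblasts and mural cells of the mouse heart were compared through 9 genes that are neither collagens nor contractile proteins. The 5 genes Myoc, Lsp1, Gfpt2, Enc1 and Cd83 stood on the fibroblast side and the 4 genes Gprc5c, Rbpms2, Inpp4b and Mcam on the mural side. They were selected on their measured difference between fibroblasts and mural cells in these same cells, so that difference is given below as a description, with no test. The 9 are part of 46517 genes in the count table, of which 28932 had at least 1 count. The rule itself did not use how each gene varied inside the fibroblast clusters and inside the mural clusters, or what its relatives did, but genes and lists were chosen with earlier results of these same cells known, so those tests are not independent of the choice either.

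Fibroblasts are the connective tissue cells that make and remodel the collagen-rich matrix between cardiac muscle fibres, whereas mural cells (pericytes and smooth muscle cells) sit on the wall of blood vessels and control vessel tone and stability. Both are mesenchymal and share receptors such as PDGFRβ. Among the fibroblast-side genes, Myoc encodes myocilin, a secreted glycoprotein with an olfactomedin domain. Lsp1 encodes an actin-binding protein best known from leukocytes, and Cd83 encodes a membrane protein of the immunoglobulin superfamily best known from mature dendritic cells. Gfpt2 encodes an enzyme of the first step of hexosamine synthesis, which feeds protein glycosylation and hyaluronan, and Enc1 encodes an actin-associated BTB-kelch protein. Among the mural-side genes, Gprc5c encodes an orphan class C receptor and Mcam an adhesion receptor of the immunoglobulin superfamily that is a known marker of vessel walls. Rbpms2 encodes an RNA-binding protein of smooth and cardiac muscle, and Inpp4b a lipid phosphatase that acts on products of PI3-kinase.

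The series held 1279 single cells of adult male mice aged 10 to 20 weeks, sequenced by Smart-seq2, a full-length method on 384-well plates without molecular identifiers. The labels gave each cell a cluster from 1 to 8 and a strain. The strain C57BL6 (581 cells) had been sorted with antibodies against PDGFRα or PDGFRβ. PdgfrbGFP (364 cells), Cspg4dsRED (12.7% of the cells) and Acta2GFP (13.4%) carried a transgene with a fluorescent protein under regulatory sequences of Pdgfrb, Cspg4 or Acta2, so that the gate followed the activity of that transgene. All strains had been backcrossed to C57Bl6/J, cells with CD31 had been sorted away, and elastase had been added for Acta2GFP. Clusters 1 to 5 are fibroblasts in the study, with cluster 1 placed at the valves, and clusters 6 to 8 were taken as mural cells. Fibroblasts numbered 926 cells and mural cells 353. Mural cells were 6.37% of the C57BL6 cells, 35.2% for PdgfrbGFP, 84.05% for Cspg4dsRED and 29.8% for Acta2GFP, which left 26 fibroblasts in Cspg4dsRED and 37 mural cells in C57BL6. The labels name no animal, so counts were summed per strain and the 4 strains served as replicates. Each reporter strain was 1 plate and C57BL6 was on 3, of which 1 gave a single cell and another no mural cell. Strain and sort cannot be told apart, nor can plate for the reporter strains, and p-values measure the spread between these 4 sums.

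As sums over a class, the defining markers followed the labels, with cluster 6 apart from the other mural clusters. The summed level of Pdgfra, Col1a1, Col1a2, Dcn and Lum was 11069 to 13700 CPM in fibroblasts (CPM is the count of a gene scaled by the total count of the summed cells) and, in mural cells, 1289 to 2536 CPM. In cluster 6 it was 12491 CPM in the 3 cells of C57BL6, a level within the fibroblast range, and 3223 and 3108 CPM for Cspg4dsRED and Acta2GFP. The summed level of Rgs5, Notch3, Pdgfrb, Cspg4 and Des was 246.004 to 535 CPM in fibroblasts and, in mural cells, 5348 to 14025 CPM. Cells had 46268 to 1302397 counts, and the median was 300090 in fibroblasts and 208557 in mural cells. A list of 7 immune markers summed to 4.601 to 38.7 CPM in fibroblasts and, in mural cells, 0.927 to 28.2 CPM, with Cd3e at 0 in both. A list of 7 endothelial markers summed to 112.3 to 384 CPM in fibroblasts and, in mural cells, 4.86 to 63.2 CPM. Tek made up most of it in fibroblasts (mean 130.7 CPM) and little in mural cells (4.08 CPM). Pecam1 was above Tek in mural cells (15.1 CPM) but below its own level in fibroblasts (41.3 CPM). A list of 8 dissociation stress genes summed to 7149 to 15167 CPM in fibroblasts and, in mural cells, 5209 to 8143 CPM. A list of 7 cardiomyocyte markers summed to 23.4 to 115.5 CPM in fibroblasts and, in mural cells, 211.4 to 413 CPM, and Schwann and mesothelial lists stayed at or under 3.62 CPM in every strain. The part of these other signals in the values below was not tested.

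All 9 are protein-coding genes on the forward strand, and the promoters of the 5 that could be matched differed widely in base composition. In the GENCODE M21 annotation of GRCm38, Myoc (ENSMUSG00000026697) lies at chr1:162639155-162649693, Lsp1 (ENSMUSG00000018819) at chr7:142460809-142494867 and Gfpt2 (ENSMUSG00000020363) at chr11:49794178-49838613. Enc1 (ENSMUSG00000041773) lies at chr13:97241105-97253034 and Cd83 (ENSMUSG00000015396) at chr13:43784775-43803132. Gprc5c (ENSMUSG00000051043) lies at chr11:114851152-114872617, Rbpms2 (ENSMUSG00000032387) at chr9:65629648-65660528, Inpp4b (ENSMUSG00000037940) at chr8:81342556-82127914 and Mcam (ENSMUSG00000032135) at chr9:44134469-44142727. Exons of Myoc share bases with Myocos, and exons of Mcam with Gm10687, each on the opposite strand. Whether the counting used strand is not stated, so reads of these pairs may be mixed. The levels of Myoc (75025 counts over all cells) and Mcam (65385) are uncertain to that extent.

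Promoter sequences from RefSeq (GRCm38.p6), spanning 250 bases before to 50 bases after the start that RefSeq gives the gene, were matched for 5 of the 9 genes, namely Myoc, Gfpt2, Inpp4b, Mcam and Rbpms2. The RefSeq start is not the GENCODE start given above, and the Rbpms2 window (chr9:65630332-65630631) lies wholly downstream of the latter. Shown are those of Myoc (chr1:162638900-162639199), Gfpt2 (chr11:49793905-49794204) and Mcam (chr9:44134408-44134707), all on the forward strand, because they include the gene poorest in CpG, the gene that passed the test among clusters 2 to 5 and the gene with the clearest mural signal per cell. Capitals mark, on either strand, the TATA box (TATAAA), the CCAAT box (CCAAT), the GC box (GGGCGG) and the AP-1 site (TGANTCA).
Myoc: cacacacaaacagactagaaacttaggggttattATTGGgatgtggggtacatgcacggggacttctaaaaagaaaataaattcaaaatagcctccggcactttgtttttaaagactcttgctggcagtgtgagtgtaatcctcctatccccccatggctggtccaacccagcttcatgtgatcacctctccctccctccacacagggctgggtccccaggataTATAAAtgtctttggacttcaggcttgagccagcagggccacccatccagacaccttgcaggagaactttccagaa
Gfpt2: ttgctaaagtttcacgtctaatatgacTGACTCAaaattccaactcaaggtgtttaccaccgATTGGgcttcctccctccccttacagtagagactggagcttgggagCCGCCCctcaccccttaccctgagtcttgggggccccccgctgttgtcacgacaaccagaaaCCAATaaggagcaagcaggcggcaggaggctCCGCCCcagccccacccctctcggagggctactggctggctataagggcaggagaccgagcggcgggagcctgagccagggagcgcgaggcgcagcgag
Mcam: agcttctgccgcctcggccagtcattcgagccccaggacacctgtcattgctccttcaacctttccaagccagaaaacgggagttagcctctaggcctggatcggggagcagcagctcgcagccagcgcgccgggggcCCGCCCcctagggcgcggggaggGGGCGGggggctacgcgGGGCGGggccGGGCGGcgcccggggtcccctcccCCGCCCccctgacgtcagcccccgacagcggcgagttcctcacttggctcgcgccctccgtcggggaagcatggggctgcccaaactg
The Myoc window was 48.7% G or C with 2 CpG, below the median of 52.7% and 7 CpG over 32851 promoters of the same length. Gfpt2 had 60.7% and 15 CpG, Inpp4b 68.3% and 25, Mcam 72.7% and 29, and Rbpms2 83.3% and 48. TATAAA was present in Myoc alone among the 5 (13.6% of all promoters hold it), and GGGCGG in the other 4 (35.7% of all). CCAAT was present in Myoc, Gfpt2, Inpp4b and Rbpms2 (37.4% of all). TGANTCA was present in Gfpt2 (7.81% of all) and CAGCTG in Rbpms2 (16.3% of all). No match was found in these windows to the CArG box (1.63% of all), TGGGAA (25.6%) or GGAATG (14.7%). Matches are letters in a window and were not tied to the levels.

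In each of the 4 strains the 5 fibroblast-side genes were higher in fibroblasts, and the lowest fibroblast sum lay above the highest mural sum for all 5. Across all genes tested in this contrast (15117), 5.93% passed an adjusted p of 0.05 in edgeR's quasi-likelihood test, 3.47% with a higher level in fibroblasts and 2.45% with a higher level in mural cells. Nothing is read from the 9 themselves here, or from their lack of overlap, since the contrast chose them. The share of all genes without such overlap was not counted. Myoc was at 256.5 CPM in C57BL6, 279.2 for PdgfrbGFP, 281.4 for Cspg4dsRED and 179.6 for Acta2GFP fibroblasts, and at 7.53, 4.86, 6.47 and 8.24 CPM in mural cells of the same strains. The mean was 249.2 ± 47.7 (SD, n = 4 strains) against 6.78 ± 1.47 CPM, a ratio of 36.8, and Acta2GFP had both the lowest fibroblast and the highest mural level. Sums weigh cells by depth. As a mean over single cells, fibroblasts were at 278.8, 273.2, 292.1 and 270.6 CPM in the same order of strains, with Acta2GFP nearly level with the others.

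Lsp1 was at 447, 363, 449 and 452 CPM in fibroblasts of C57BL6, PdgfrbGFP, Cspg4dsRED and Acta2GFP and at 35.2, 32.3, 42.8 and 36.04 CPM in their mural cells. Its mean of 428 ± 43.1 against 36.6 ± 4.43 CPM gave a ratio of 11.7, the smallest of the 9, and its difference varied least between strains (3.51 ± 0.13 on the log2(CPM + 1) scale). The mural levels rested in large part on single cells. In the same order of strains, 1 mural cell held 62.5%, 46.5%, 20.95% and 47.5% of the Lsp1 counts. Gfpt2 was at 448, 557, 519 and 378 CPM in fibroblasts, against 9.15, 17.1, 10.2 and 14.2 CPM in mural cells. Its means were 475 ± 79.4 and 12.7 ± 3.67 CPM, a ratio of 37.5, and the strains of one class did not reach those of the other.

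Enc1 and Cd83 had low fibroblast levels and were close to 0 in mural cells. Enc1 was at 58.7, 39.96, 74.01 and 48.9 CPM in fibroblasts of C57BL6, PdgfrbGFP, Cspg4dsRED and Acta2GFP and at 0.579, 0.632, 0.0565 and 0.341 CPM in mural cells. The mural values rested on 5, 13, 2 and 7 counts, so that the ratio of means of 137.7 is loosely set. Cd83 was at 59.7, 76.3, 120.6 and 70.4 CPM in fibroblasts, against 0.695, 1.07, 0.141 and 0.732 CPM in mural cells, from 6, 22, 5 and 15 counts. The Cd83 ratio was 124.1, and Cspg4dsRED, with 26 fibroblasts, gave the highest fibroblast and the lowest mural level of both Enc1 and Cd83.

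Since Lsp1 and Cd83 are known from immune cells, their levels were taken again without the 476 fibroblasts (51.4%) and the 62.04% of mural cells that had a count of Ptprc (the leukocyte marker CD45) or Pecam1 (the endothelial marker CD31). Most of those fibroblasts were left out for Pecam1, which had a count in 453, against 51 for Ptprc. Lsp1 was then at 393 to 541 CPM in fibroblasts and 6.34 to 72.004 CPM in mural cells. Cd83 was at 48.5, 54.4 and 80.4 CPM in fibroblasts of C57BL6, PdgfrbGFP and Acta2GFP, and in Cspg4dsRED it went from 120.6 CPM to 5.35 CPM in the 9 fibroblasts left. Other genes moved as well, with Myoc in Cspg4dsRED fibroblasts from 281.4 to 93.7 CPM, Enc1 there from 74.01 to 16.7 CPM, Rbpms2 in PdgfrbGFP fibroblasts from 14.6 to 0.754 CPM and Inpp4b in C57BL6 mural cells from 106.9 to 27.6 CPM. Each of the 9 was still higher on its own side in every strain. Ptprc had a count in 5.51% of 926 fibroblasts and in 3 of 353 mural cells (0.850%). Cells without a Ptprc count can still hold RNA of immune cells, and the part of such RNA in both levels was not tested.

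**Figure D1:**
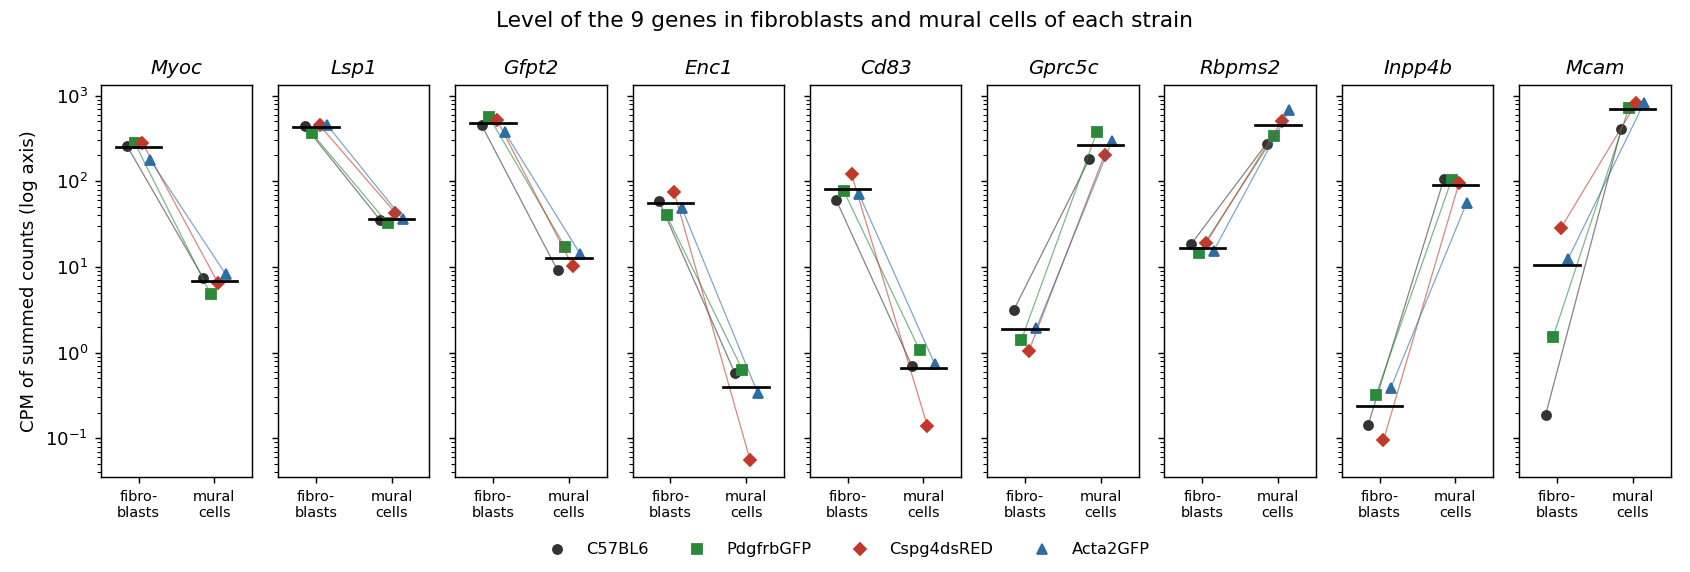
Level of each of the 9 genes in fibroblasts (left of each panel) and mural cells (right) as CPM of the counts summed per strain, on a log axis. Each symbol is 1 strain, thin lines join the sums of a strain and the bar is the mean of 4 strains. The classes do not overlap for any of the 9, which were chosen on this contrast. Mcam in fibroblasts has the widest spread, from 0.187 to 28.1 CPM.

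The 4 mural-side genes were higher in mural cells of each strain, again without overlap between the classes, which the choice of the genes favours. Gprc5c was at 181.95, 379.8, 204.4 and 298 CPM in mural cells of C57BL6, PdgfrbGFP, Cspg4dsRED and Acta2GFP and at 3.13, 1.39, 1.04 and 1.94 CPM in their fibroblasts (means 266.1 ± 91.02 and 1.88 ± 0.915 CPM, a ratio of 141.8). Rbpms2 was at 275.999, 337, 506 and 678 CPM in mural cells and at 18.3, 14.6, 19.05 and 15.5 CPM in fibroblasts (means 449 ± 180.8 and 16.9 ± 2.16 CPM, a ratio of 26.6). Both had their highest mural level in a reporter strain, PdgfrbGFP for Gprc5c and Acta2GFP for Rbpms2.

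Inpp4b was at 106.9, 103.9, 96.5 and 56.2 CPM in mural cells and at 0.145, 0.318, 0.0948 and 0.392 CPM in fibroblasts of the same strains. The fibroblast values rested on 24, 23, 1 and 19 counts, and the ratio of means was 383. Mcam was at 408, 717, 825 and 823 CPM in mural cells and at 0.187, 1.53, 28.1 and 12.5 CPM in fibroblasts. Its mural mean was 693 ± 196.5 CPM, whereas its fibroblast mean of 10.6 ± 12.9 CPM had an SD larger than itself, so the ratio of 65.5 hides a wide spread. Few cells carried the high values, since 2 of 26 fibroblasts held 88.9% of the 297 counts in Cspg4dsRED and 1 of 120 held 39.8% of the 606 counts in Acta2GFP. On the log2(CPM + 1) scale, fibroblasts of C57BL6 and PdgfrbGFP lay 8.43 and 8.15 below mural cells for Mcam, and those of Cspg4dsRED and Acta2GFP 4.82 and 5.93 below.

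Per kilobase of annotated exons, Myoc had the highest mean level of the fibroblast side in fibroblasts (120.1 CPM per kb), followed by Gfpt2 (85.04), Lsp1 (82.7), Cd83 (31.8) and Enc1 (11.7). In mural cells Mcam (206.9 CPM per kb) and Rbpms2 (179.3) stood above Gprc5c (50.7) and Inpp4b (6.96). The length pools the exons of all annotated transcripts (2074 bases for Myoc, 5174 for Lsp1, 13066 for Inpp4b). It is not the length of the transcript made in these cells, which was not measured. The order between genes depends on that length, since by CPM alone Gfpt2 (475) and Lsp1 (428) stood above Myoc (249.2). Fewer cells with a transcript and less of it per cell cannot be told apart in these sums, so the cells were examined next.

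At the level of single cells the 9 genes were far from uniform. A count of at least 1 was found in 72.7% of the 926 fibroblasts for Myoc, 89.7% for Lsp1, 87.9% for Gfpt2, 31.5% for Enc1 and 32.4% for Cd83. The same threshold was met in 42.2%, 54.1%, 51.3%, 6.80% and 12.2% of the 353 mural cells, so low counts were common in the class with the lower level. These shares pool all cells, and the strains make up different parts of the classes (544 of 926 fibroblasts but 37 of 353 mural cells were C57BL6). Within each strain the share was higher in fibroblasts for all 5, but by little in some, as for Myoc in C57BL6 (68.4% against 64.9%) and Lsp1 in Acta2GFP (100% against 96.1%). Across strains the classes overlapped for Myoc (53.8% to 87.5% of fibroblasts, 18.98% to 68.6% of mural cells), Lsp1 and Gfpt2. At 10 or more counts the shares in the pooled fibroblasts were 21.9% for Myoc, 61.99% for Lsp1, 51.4% for Gfpt2, 13.8% for Enc1 and 11.7% for Cd83. In mural cells they were 1.70%, 7.08% and 2.55% for Myoc, Lsp1 and Gfpt2, and 0 of 353 cells for Enc1 and Cd83, which allows a share of up to 0.850%.

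Myoc, Enc1 and Cd83 thus came from a minority of fibroblasts. The fibroblasts with 10 or more counts held 98.7% of all Myoc counts in the class, 98.3% of the Enc1 counts and 98.5% of the Cd83 counts. Lsp1 was the broadest, with 574 fibroblasts at 10 or more counts and a coefficient of variation over cells of 1.17, against 2.80 for Myoc, 3.88 for Enc1 and 3.69 for Cd83. In the 563 Myoc counts of mural cells, by contrast, 6 cells with 10 or more counts held 41.6%, and the rest lay in cells with 1 to 9 counts.

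On the mural side, Mcam was the broadest gene. A count was found in 87.3% of mural cells for Mcam, 73.1% for Rbpms2, 63.2% for Gprc5c and 30.3% for Inpp4b, and in 22.9%, 25.1%, 26.1% and 5.83% of fibroblasts, again over pooled cells. Over the strains the fibroblast share ran from 5.33% (C57BL6) to 69.2% (Cspg4dsRED) for Mcam and from 15.1% (C57BL6) to 71.7% (Acta2GFP) for Rbpms2, where it overlapped the mural range of 53.9% to 96.1%. Within each strain the mural share was the higher for all 4. At 10 or more counts the mural shares were 69.4%, 50.4%, 30.6% and 17.3%, and the fibroblast shares 0.756%, 4.64%, 0.216% and 0 of 926, which allows up to 0.324%. Inpp4b was therefore carried by 61 mural cells, which held 99.1% of its 7630 mural counts, whereas 43 fibroblasts reached 10 counts of Rbpms2 and held 92.7% of its 5052 fibroblast counts.

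Depth differed between the classes, so each cell was thinned to 50000 counts, leaving out 2 mural cells below that depth. Shares of cells with a count then fell to 38.2% (fibroblasts) and 17.7% (mural cells) for Myoc, 71.8% and 32.5% for Lsp1, and 65.98% and 27.9% for Gfpt2. They were 17.7% and 2.28% for Enc1, and 16.7% and 2.56% for Cd83. For the mural side they were 44.2% (mural cells) and 7.67% (fibroblasts) for Gprc5c, 60.1% and 9.61% for Rbpms2, 20.8% and 1.08% for Inpp4b, and 77.5% and 7.56% for Mcam. Within each strain the class with the higher share was the same as without thinning for each of the 9.

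Low counts in the opposite class varied by plate. The libraries of a plate had been pooled on 1 sequencing lane. Within C57BL6, the plate that also held the 37 mural cells had a count of Mcam in 29 fibroblasts (9.93%), none with 10 or more. The plate without mural cells had 0 fibroblasts with a count of Mcam, which allows a share of up to 1.20%. Inpp4b had a count in 4.45% and 1.99% of those fibroblasts, whereas Gprc5c went the other way, with 8.22% and 35.1%. What gave these low counts was not tested.

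**Figure D2:**
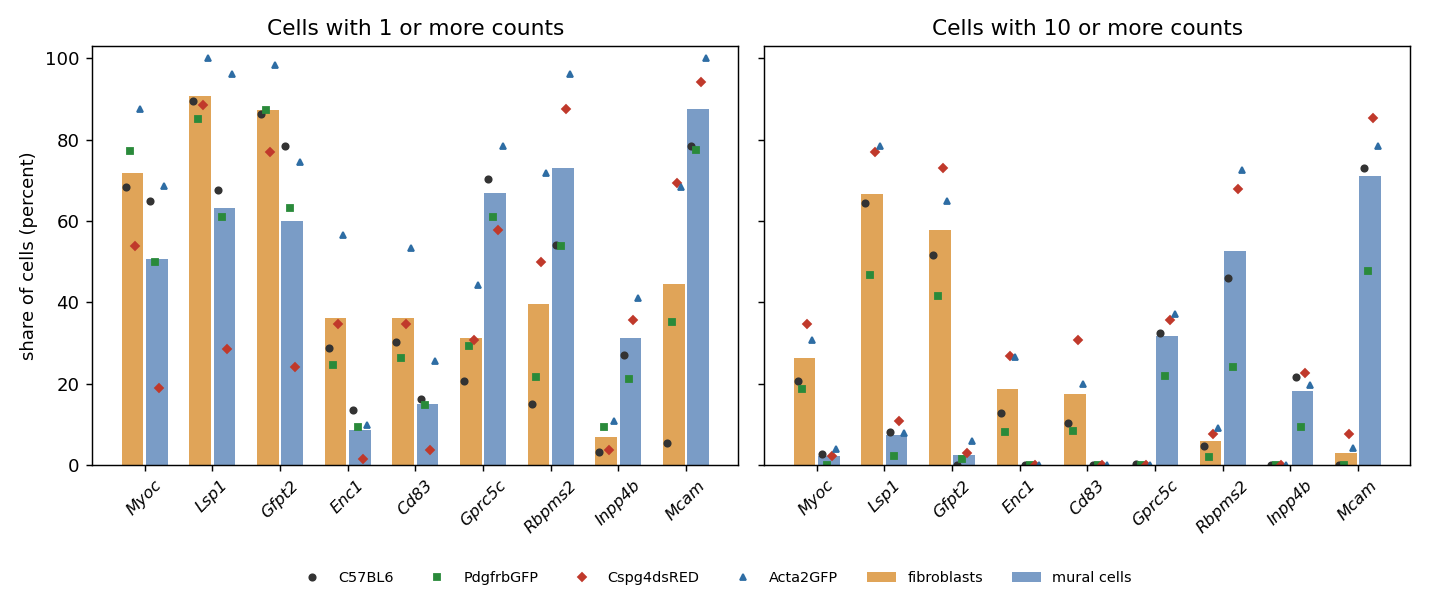
Share of fibroblasts (orange) and mural cells (blue) with at least 1 count (left) and with at least 10 counts (right) of each gene, in percent. Bars are means of 4 strains and symbols the single strains; with at least 1 count the strains of both classes overlap for Myoc, Lsp1, Gfpt2 and Rbpms2, and at 10 or more counts the class with the lower level falls to at most 10.9%, the value of Lsp1 in Cspg4dsRED mural cells.

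A single gene ordered pairs of cells to a different degree. For each strain, all pairs of 1 fibroblast and 1 mural cell were formed, and the share in which the gene had the higher CPM in its own class was taken, with ties split evenly. Mcam ordered 83.2% to 95.4% of the pairs over the 4 strains, Lsp1 72.2% to 88.7%, Rbpms2 70.4% to 89.8%, Gfpt2 70.2% to 86.3% and Gprc5c 71.3% to 80.1%. Myoc (53.99% to 69.5%), Enc1 (57.7% to 75.03%), Cd83 (55.6% to 66.7%) and Inpp4b (56.7% to 66.6%) were lower. These shares describe the contrast that chose the genes.

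Genes of both sides were seldom together at 10 or more counts. Among fibroblasts, 715 of 926 (77.2%) reached 10 counts of at least 1 fibroblast-side gene and of no mural-side gene, 47 (5.08%) of both sides, 4 (0.432%) of the mural side alone and 160 (17.3%) of neither. Among mural cells, 74.2% of 353 had the mural side alone, 35 (9.92%) both, 3 (0.850%) the fibroblast side alone and 53 (15.01%) none. Cells with both had a median of 370801 counts in fibroblasts and 255122 in mural cells, above the class medians. Cluster 6 had both sides in 14 of 39 cells (35.9%), against 8 cells (6.78%) in cluster 7 and 13 cells (6.63%) in cluster 8. The fibroblast side there was nearly all Lsp1, with 10 or more counts in 16 cells of cluster 6. Myoc and Gfpt2 reached 10 counts in 1 cell each, and Enc1 and Cd83 in 0. Of the 39 cells, 33 came from Cspg4dsRED.

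**Figure D3:**
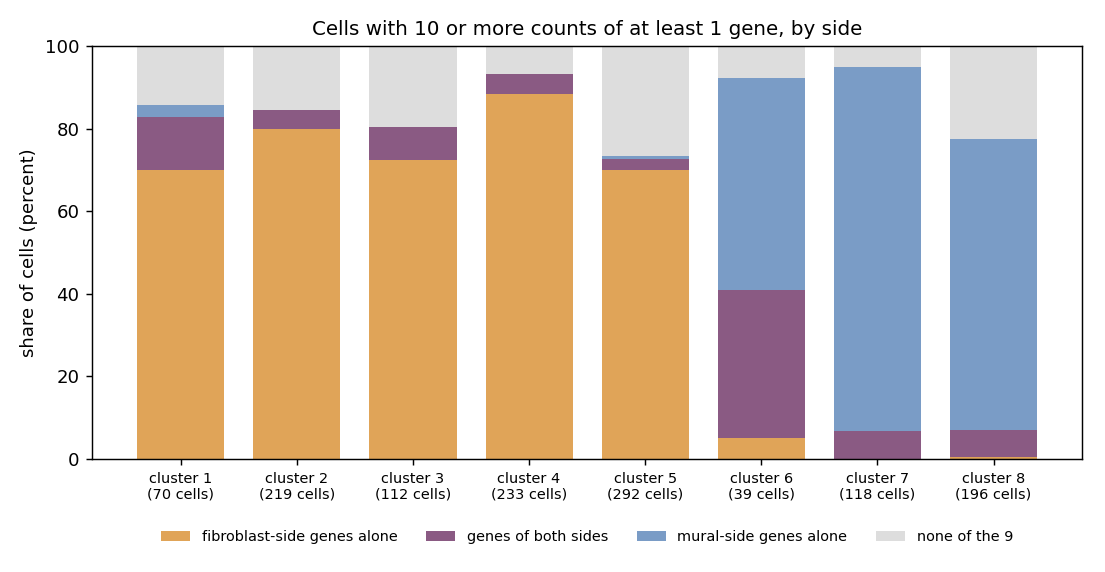
Share of cells of each cluster, in percent, with 10 or more counts of at least 1 fibroblast-side gene alone (orange), of genes of both sides (purple), of at least 1 mural-side gene alone (blue) or of none of the 9 (grey). Clusters 1 to 5 are mostly orange and clusters 6 to 8 mostly blue. Cluster 6 has the largest share with both, 35.9%, where the fibroblast side was nearly all Lsp1.

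Among clusters 2 to 5, Gfpt2 was the 1 gene of the 9 that passed the test. Over these clusters, 0.301% of 16629 genes passed an F test among the 4 clusters (edgeR, adjusted p under 0.05), and of the 8 of the 9 genes that could be tested only Gfpt2 did (adjusted p = 0.00725). Gfpt2 was at 823, 1014, 896 and 751 CPM in cluster 4 of C57BL6, PdgfrbGFP, Cspg4dsRED and Acta2GFP. It was at 427 and 516 CPM in cluster 5 of C57BL6 and PdgfrbGFP, at 212.9, 308, 287.6 and 282.5 CPM in cluster 2, and at 238.4, 167.4 and 198.1 CPM in cluster 3 of C57BL6, PdgfrbGFP and Acta2GFP. Cluster 4 (871 ± 112.2 CPM) therefore lay above cluster 5 (472 ± 63.2 CPM) and cluster 5 above clusters 2 (272.6 ± 41.3) and 3 (201.3 ± 35.6) in every sum, while the ranges of clusters 2 and 3 overlapped.

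The study drew its clusters from these counts, so this p is not independent of the clustering. The call was also lost when 1 strain was left out, with an adjusted p of 0.283 without C57BL6, 0.0924 without PdgfrbGFP and 0.109 without Acta2GFP, and it held without Cspg4dsRED (0.0360). It was kept in 7 of 10 alternatives. Clusters 3 and 5 had no sum of 3 or more cells in Cspg4dsRED, and cluster 5 none in Acta2GFP.

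The other fibroblast-side genes spread over clusters 1 to 5 without passing a test. Myoc had a mean of 185.04 ± 77.8 CPM (n = 4) in cluster 2 and 419 ± 245.04 CPM (n = 3) in cluster 3, with adjusted p = 0.637 among clusters 2 to 5. Cluster 3 was at 365, 687 and 205.95 CPM in C57BL6, PdgfrbGFP and Acta2GFP, where 2 of 7 PdgfrbGFP cells held 95.02% and 1 of 14 Acta2GFP cells 93.1% of the counts. In cluster 1 it was at 704, 439 and 197.4 CPM in the same strains and at 0 in the 3 cells of Cspg4dsRED, so the strains did not order the clusters alike. Lsp1 was the most even, from 307 ± 66.1 CPM in cluster 3 to 466 ± 96.5 CPM in cluster 4. Enc1 ran from 37.95 ± 31.6 CPM in cluster 3 to 63.05 ± 19.4 CPM in cluster 5, and clusters next to each other in mean level overlapped for these 3 genes. The lowest and the highest cluster of Lsp1 did not, with 235.4 to 365.5 CPM in cluster 3 and 371.6 to 559 CPM in cluster 4.

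Cd83 had its highest level in cluster 2, at 143.02, 82.7, 190.2 and 150.3 CPM in C57BL6, PdgfrbGFP, Cspg4dsRED and Acta2GFP (141.5 ± 44.4 CPM), where 49.8% of cells had a count. It was at 0.566, 148.9 and 22.5 CPM in cluster 3 of C57BL6, PdgfrbGFP and Acta2GFP, and the F test over clusters 2 to 5 gave an adjusted p of 1.00. In cluster 3 the 2 cells with the most Cd83 held 94.99% of its 459 counts, so the spread between strains there follows single cells.

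Cluster 1, which the study places at the valves, was compared with clusters 2 to 5 (1.33% of 13201 genes passed). Of the 8 genes that could be tested, 0 passed with edgeR, and 3 had p under 0.05 before adjustment, as did 1171 of all 13201 genes. Gfpt2 was lower by 2.00 ± 0.59 (log2 fold change ± SE, adjusted p = 0.164), at 214.8, 169.8, 17.3 and 98.5 CPM in cluster 1 of C57BL6, PdgfrbGFP, Cspg4dsRED and Acta2GFP. Cd83 was lower by 2.01 ± 0.91 (adjusted p = 0.559), with 17.1, 40.01, 0 and 25.5 CPM, and its fitted difference was -2.62 without PdgfrbGFP and -1.41 without Cspg4dsRED. Gprc5c was higher by 4.01 ± 1.47 (adjusted p = 0.353), but 2 of 19 C57BL6 cells held 99.7% of the 390 counts of that sum, and cluster 1 of the other strains was at 2.35 to 3.02 CPM, with a fitted difference of 1.02 without C57BL6. DESeq2 called Gfpt2 (adjusted p = 0.0396, with 0.0396 to 0.415 over 10 alternatives), gave no p for Gprc5c and called none of the other 6, and limma-voom called none of the 8. Over all genes DESeq2 called 5.22% and limma-voom 2.93%. With strain as a block the share of all genes called fell from 1.33% to 0.742%, and no call among the 9 changed.

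The mural-side genes varied by strain in cluster 1 as well. Mcam had a count in 52.9% of the 70 pooled cells of cluster 1 and in 15.8% to 24.5% of the pooled cells of clusters 2 to 5, but in 5.26% of the cells of cluster 1 in C57BL6, against 59.1%, 66.7% and 80.8% in PdgfrbGFP, Cspg4dsRED and Acta2GFP. In clusters 2, 3 and 4 it had a count in 3.23%, 10% and 3.94% of C57BL6 cells and in 71.1%, 71.4% and 55% of Acta2GFP cells, so the pooled shares also follow the strain makeup of the clusters. Its level in cluster 1 was 0.169, 2.97, 103.7 and 39.9 CPM in C57BL6, PdgfrbGFP, Cspg4dsRED and Acta2GFP, and in Cspg4dsRED 1 of 3 cells held 96.4% of the 84 counts. The fitted difference was 2.30 ± 1.68 (adjusted p = 0.880). Rbpms2 had a count in 57.1% of the pooled cells of cluster 1 and 17.5% to 27.04% of those of clusters 2 to 5, with 5.26% in cluster 1 of C57BL6 and 96.2% for Acta2GFP. Its level in cluster 1 (10.9 ± 11.2 CPM) was within the range of the other clusters (9.88 to 21.4 CPM). Summed smooth muscle markers (Acta2, Tagln, Myh11, Cnn1) were at 259.1 to 985 CPM in cluster 1 and pericyte markers (Kcnj8, Abcc9, Vtn, Rgs5) at 162.9 to 849 CPM, highest for Acta2GFP in both cases. In clusters 2 to 5 these lists were at 16.6 to 1447 CPM and 26.3 to 322 CPM, and their part in the Mcam level was not tested.

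**Figure D4:**
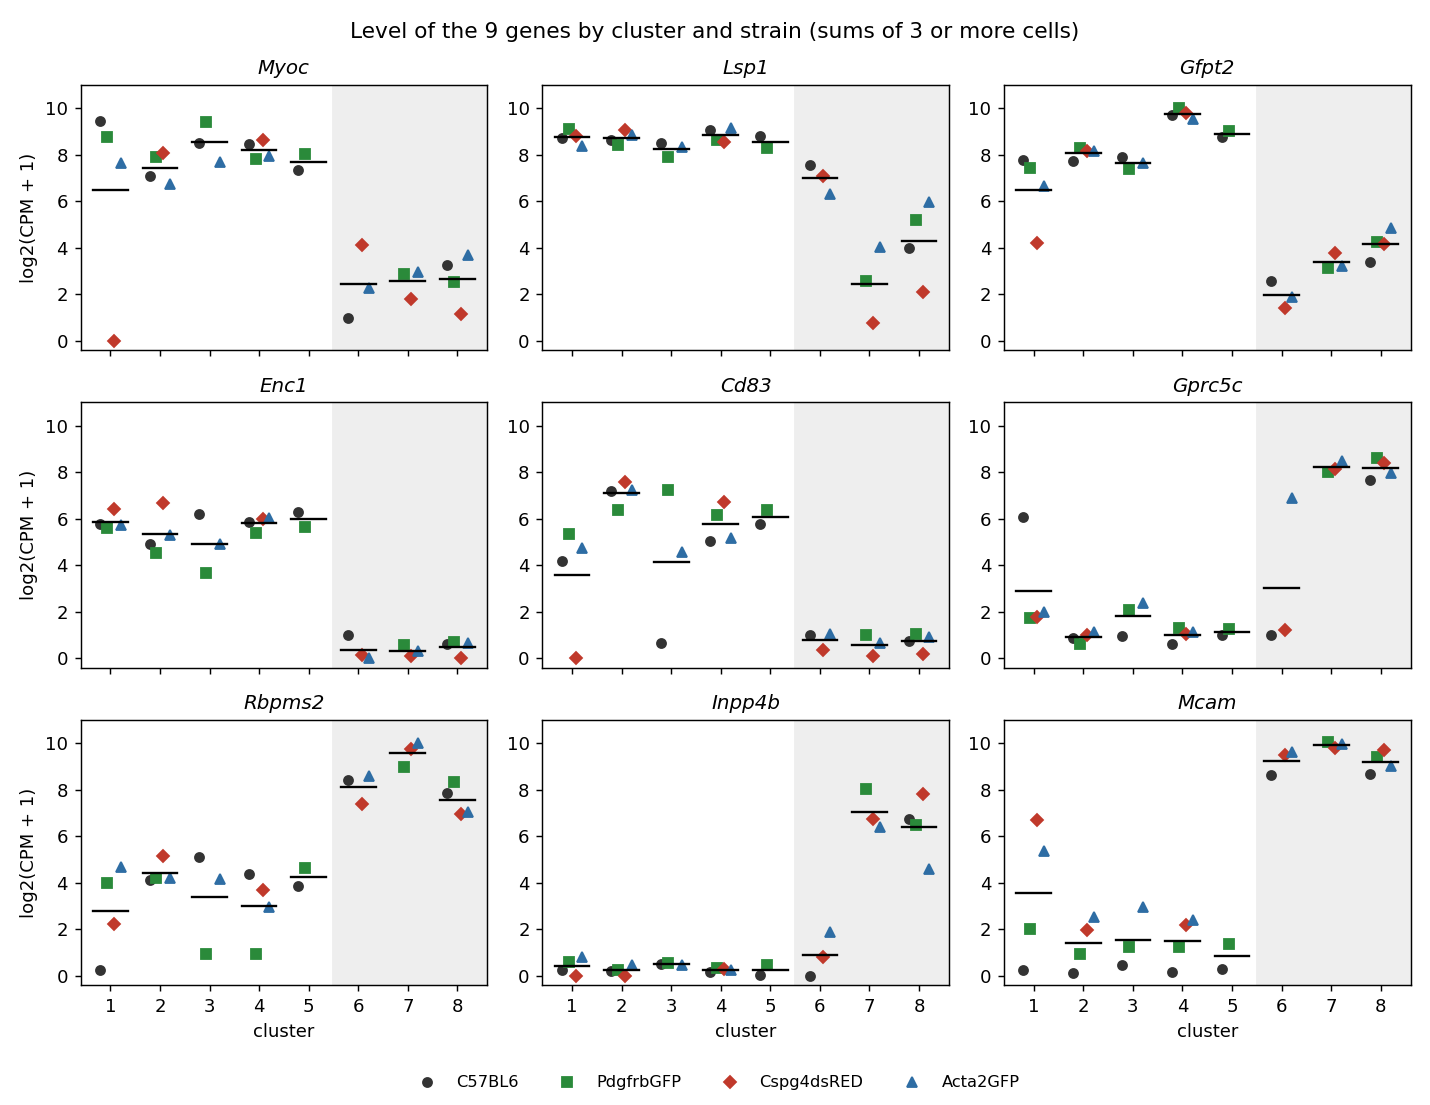
Level of each gene as log2(CPM + 1) of the counts summed per strain and cluster (sums of 3 or more cells), for clusters 1 to 8, with the mural clusters 6 to 8 shaded. Each symbol is 1 strain and the bar is the mean of their log2 values; Gfpt2 peaks in cluster 4, Inpp4b is near 0 in cluster 6 and high in clusters 7 and 8, and Rbpms2 is highest in cluster 7.

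The mural clusters differed in their markers, and the 4 mural-side genes did not follow them alike. Smooth muscle markers summed to 9946 to 13384 CPM in cluster 6, 10670 to 15717 CPM in cluster 7 and 201.1 to 4033 CPM in cluster 8. Pericyte markers summed to 121.996 to 510.4 CPM in cluster 6, 2486 to 8974 CPM in cluster 7 and 6942 to 23596 CPM in cluster 8. Cluster 6 held 39 cells, of which 3 each came from C57BL6 and Acta2GFP, and cluster 7 had no sum in C57BL6. Mcam was the most even of the 4, at 399, 709 and 785 CPM in cluster 6 of C57BL6, Cspg4dsRED and Acta2GFP, 889 to 1047 CPM in cluster 7 and 407 to 839 CPM in cluster 8.

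Inpp4b was at 0, 0.740 and 2.70 CPM in cluster 6 of C57BL6, Cspg4dsRED and Acta2GFP, from 13 counts in 39 cells. It was at 257.6, 106.3 and 83.3 CPM in cluster 7 of PdgfrbGFP, Cspg4dsRED and Acta2GFP, and at 106.7, 87.04, 225.3 and 22.7 CPM in cluster 8 of the 4 strains. The sums of cluster 6 thus lay below each sum of clusters 7 and 8. In the test of cluster 6 against clusters 7 and 8, where 0.033% of 12117 genes passed, it was lower by 6.29 ± 1.84 on the log2 scale (adjusted p = 0.453). With 1 strain left out the fitted difference ran from -5.73 (without Cspg4dsRED) to -8.00 (without Acta2GFP), and a sum at 0 counts makes it depend on the prior count of the fit.

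Gprc5c was at 0.980 CPM in C57BL6 and 1.295 CPM in Cspg4dsRED in cluster 6, and at 117.1 CPM in Acta2GFP, where 1 of 3 cells held 96.8% of the counts. In clusters 7 and 8 it was at 298 ± 50.7 and 294 ± 84.9 CPM. Its fitted difference was -2.47 ± 1.49 (adjusted p = 0.994), and -6.00 with strain as a block in edgeR (adjusted p = 0.0787). Without Acta2GFP the difference was -7.73 (adjusted p = 0.0473, with 0.0473 to 0.910 over 8 alternatives). Lsp1, a fibroblast-side gene, was higher in cluster 6 by 3.13 ± 1.40 (adjusted p = 0.826, and from 2.56 without Cspg4dsRED to 4.28 without Acta2GFP), at 188.1, 136.8 and 77.7 CPM against 0.726 to 15.5 CPM in cluster 7 and 3.30 to 61.2 CPM in cluster 8. The fibroblast markers Pdgfra, Col1a1, Col1a2, Dcn and Lum summed to 12491, 3223 and 3108 CPM in cluster 6 of C57BL6, Cspg4dsRED and Acta2GFP, against 309 to 777 CPM in cluster 7 and 959.5 to 3334 CPM in cluster 8, and their part in the Lsp1 level was not tested.

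In this comparison 7 of the 9 genes could be tested and 0 of them passed with edgeR. Inpp4b and Lsp1 had p under 0.05 before adjustment, as did 695 of all 12117 genes. DESeq2 called Inpp4b (adjusted p = 0.000910, with 0.000910 to 0.560 over 8 alternatives) and no other, and limma-voom called none. Over all genes edgeR called 0.033%, DESeq2 2.81% and limma-voom 0.479%. With strain as a block edgeR called 0.883%, and no call among the 9 changed.

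Rbpms2 was highest in cluster 7, at 507, 854 and 1029 CPM in PdgfrbGFP, Cspg4dsRED and Acta2GFP, against 319, 122.2 and 131.6 CPM in cluster 8 of the same strains and 233.2 CPM in C57BL6. Over pooled cells it had a count in 97.5% of cluster 7 and 57.7% of cluster 8, which differ in strain makeup. Within strains the shares were 77.8% and 52.1% for PdgfrbGFP, 98.7% and 68.97% for Cspg4dsRED, and 100% and 86.7% for Acta2GFP. The difference of cluster 8 from cluster 7 was -2.10 ± 0.57 (adjusted p = 0.221 in edgeR, where 0.194% of 11867 genes passed), with no overlap between the 2 clusters. With 1 strain left out it ran from -1.75 (without Acta2GFP) to -2.85 (without PdgfrbGFP). Of the 7 genes that could be tested, 0 passed with edgeR. Rbpms2 was the 1 with p under 0.05 before adjustment, which 817 of all 11867 genes had. Limma-voom called Rbpms2 (adjusted p = 0.0331, with 0.0331 to 1.00 over 9 alternatives) and DESeq2 called none. Over all genes limma-voom called 1.31% and DESeq2 3.20%. The edgeR count over all genes rose from 23 to 82 with strain as a block, without a changed call among the 9. Mcam (-0.62 ± 0.43), Inpp4b (-0.61 ± 0.94) and Gprc5c (0.05 ± 0.55) had fitted differences nearer 0. That of Inpp4b depended on the strains, at 0.36 without PdgfrbGFP and -1.82 without Cspg4dsRED, where Rbpms2 was at -1.84. Lsp1 had a fitted difference of 2.24 ± 1.83 (adjusted p = 0.972) and Gfpt2 of 1.07 ± 1.61 (adjusted p = 0.989), with Gfpt2 at 18.1 ± 7.69 CPM in cluster 8 and 9.65 ± 2.82 in cluster 7. The fibroblast markers were higher in cluster 8 than in cluster 7 of each shared strain (1370 against 552 CPM for PdgfrbGFP, 959.5 against 309 for Cspg4dsRED and 3334 against 777 for Acta2GFP), and their part in both levels was not tested.

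Relatives of the 9 genes were tested between fibroblasts and mural cells in 9 lists of 11 to 21 genes. Of those that could be tested, 11 were higher in fibroblasts, 7 were higher in mural cells and 96 did not pass (edgeR, adjusted over all 15117 genes). The 18 that passed are 15.8% of those tested, beside 5.93% of all genes, and the lists had been chosen with earlier results of these data known, so nothing particular to them is read from this. The median log2 fold change of the tested relatives was -0.26, and that of all genes -0.02.

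Among relatives of Myoc, 2 of 9 olfactomedin-domain and latrophilin genes tested rose in fibroblasts and none in mural cells (median 0.44). Olfml3 was at 1085 ± 147.03 CPM in fibroblasts, against 65.6 ± 60.7 CPM in mural cells (log2 fold change 4.06 ± 0.59, adjusted p = 0.00355), and Olfml1 at 218.4 ± 9.10 and 32.97 ± 25.7 CPM (2.75 ± 0.68, adjusted p = 0.0424, and 0.0808 with strain as a block). Around Gfpt2, 2 of 11 genes of hexosamine and hyaluronan synthesis passed, both higher in fibroblasts (median 0.38). These were Has1, a hyaluronan synthase (44.5 ± 5.35 against 0.788 ± 0.635 CPM, 5.77 ± 0.97, adjusted p = 0.00725), and Uap1, which makes the activated sugar UDP-N-acetylglucosamine (360.4 ± 84.1 against 106.7 ± 56.6 CPM, 1.72 ± 0.42, adjusted p = 0.0411). Gfpt1, the paralog of Gfpt2, did not pass.

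The kelch relatives of Enc1 split, with 1 of 14 higher in each class (median -0.01). Klhl23 was higher in mural cells (204.7 ± 83.8 against 8.14 ± 4.77 CPM, log2 fold change -4.73 ± 0.60, adjusted p = 0.00145), and Ivns1abp higher in fibroblasts (1.72 ± 0.41, adjusted p = 0.0348, and 0.0805 with strain as a block). Of 14 partners of Cd83 and NF-kB genes tested, Cd80, a costimulatory ligand of antigen-presenting cells, passed with a low level (3.86 ± 2.07 CPM in fibroblasts, 0.0365 ± 0.0467 in mural cells, adjusted p = 0.0214), and the median was 0.42. Of 9 Lsp1 partners and leukocyte actin genes tested, 1 passed, Cald1, which encodes the actin-binding protein caldesmon and was higher in mural cells (-1.99 ± 0.30, adjusted p = 0.00392, median of the list -0.31).

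On the mural side, 0 of 5 tested class C receptor genes related to Gprc5c passed with edgeR (median -0.05). None had p under 0.05 before adjustment, and none passed with strain as a block, DESeq2 or limma-voom. Gprc5b, the best expressed, was at 56.9 ± 30.1 CPM in fibroblasts, against 29.96 ± 23.6 CPM in mural cells (adjusted p = 0.573), and Gabbr1 at 13.5 ± 14.5 and 13.8 ± 14.3 CPM. Of 13 RNA-binding factors tested around Rbpms2, 2 were higher in mural cells and none in fibroblasts (median -0.59). Its paralog Rbpms was at 683 ± 58.7 CPM in mural cells and 127.7 ± 35.9 CPM in fibroblasts (-2.42 ± 0.30, adjusted p = 0.00143), and Celf1 differed by -1.32 ± 0.32 (adjusted p = 0.0378, and 0.0501 with strain as a block). Of 20 genes of phosphoinositide turnover tested around Inpp4b, only Inpp5a passed, a phosphatase of soluble inositol phosphates (131.2 ± 66.9 CPM in mural cells, 30.6 ± 4.58 CPM in fibroblasts, -2.11 ± 0.39, adjusted p = 0.0106, median of the list -0.63).

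The list around Mcam moved most often, with 5 of 19 adhesion molecules and laminins higher in fibroblasts and 2 higher in mural cells (median 0.49). Esam (750.2 ± 377 against 14.8 ± 23.8 CPM) and Bcam (699 ± 323 against 20.6 ± 11.6 CPM) were higher in mural cells, with log2 fold changes of -5.78 ± 1.17 (adjusted p = 0.0162) and -5.10 ± 0.51 (adjusted p = 0.000490). Jam2 (110.4 ± 26.1 against 2.09 ± 1.35 CPM) and Icam1 (270.3 ± 112.5 against 15.7 ± 17.97 CPM) were higher in fibroblasts, by 5.69 ± 0.53 (adjusted p = 0.000380) and 4.10 ± 0.88 (adjusted p = 0.0214). These 4 encode immunoglobulin-type adhesion molecules of cell contacts. The other 3 were Vcam1, Lamb1 and Lamc1, all higher in fibroblasts, and Vcam1 lost its call with strain as a block (adjusted p from 0.0395 to 0.0570). Outside these 7, Jam3 (0.0661) and Lama4 (0.0719) passed with the block (adjusted p = 0.0399 and 0.0447).

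Over all 9 lists, 8 of the 18 calls (Olfml3, Klhl23, Cald1, Rbpms, Bcam, Jam2, Lamb1 and Lamc1) stayed past the threshold under each alternative run. The other 10 lost it under at least 1, each of them when some strain was left out, and none changed direction.

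**Figure D5:**
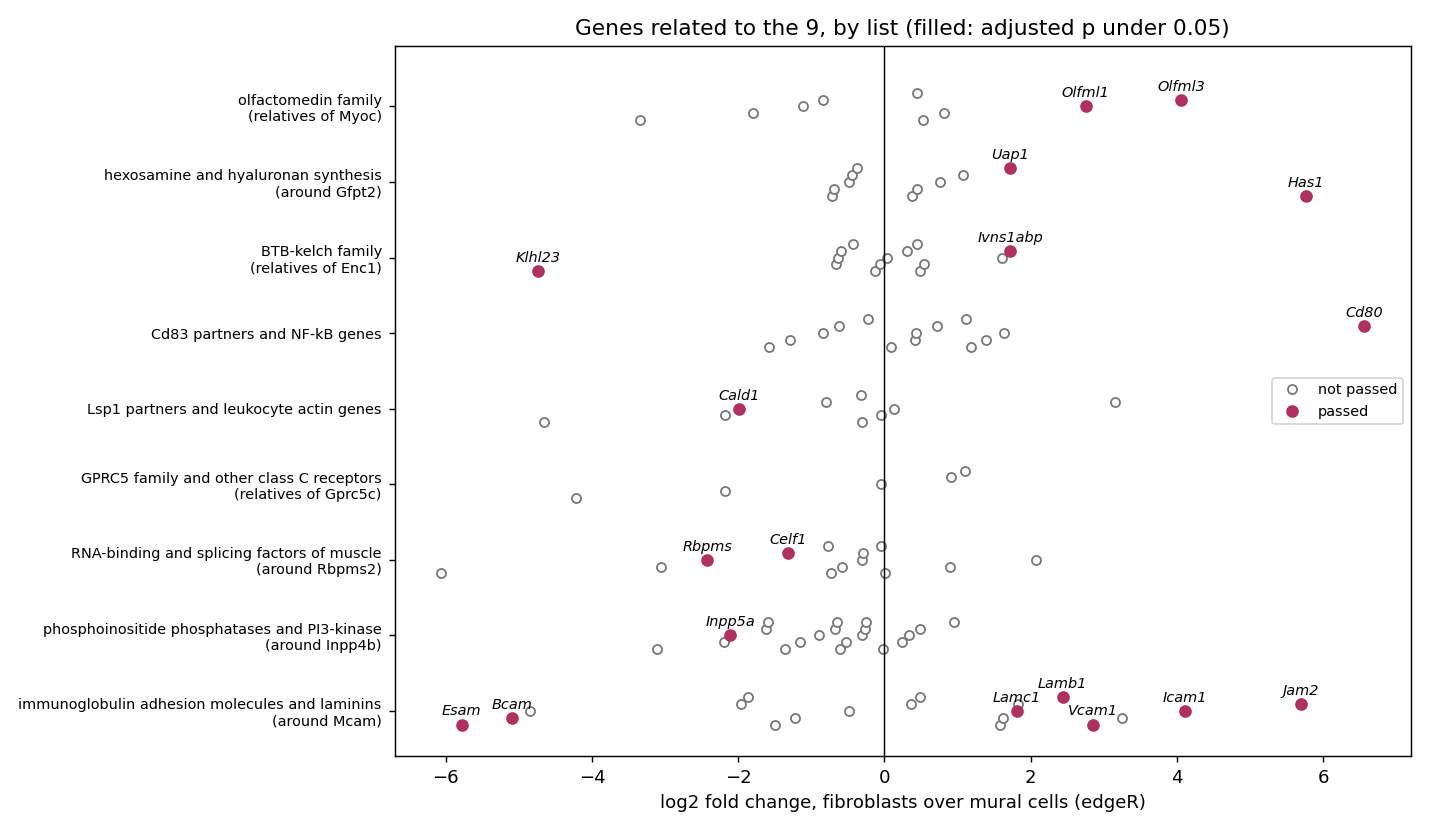
Log2 fold change of fibroblasts over mural cells (x axis, edgeR) for the tested relatives of the 9 genes, by list. Filled points passed an adjusted p of 0.05 and carry the gene name; Has1, Jam2 and Cd80 lie furthest to the fibroblast side and Esam, Bcam and Klhl23 furthest to the mural side among those that passed.

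Finally, the genes whose levels ran most like each of the 9 were taken over the 27 sums of strain and cluster (Pearson r of log2(CPM + 1), 11851 genes with a mean of at least 5 CPM). These sums share cells of 2 classes, so that any gene of one class has a high r with any other, and the r values are a description. Myoc was most like Myocos (r = 0.97), with which it shares exonic bases, then Sfrp1 (0.96) and Bdh2 (0.92). Lsp1 was most like Lum and Mfap5 (0.97 each) and Mgst1 (0.95), of which Lum and Mfap5 encode matrix proteins. Enc1 was most like Gas7 (0.95), Adamtsl2 (0.94) and Tgfbi (0.94). Gfpt2 and Cd83 had Ly6a (0.94 and 0.89) and Gm36535 (0.92 and 0.89) in common, joined by Bicc1 (0.93) for Gfpt2 and Bmper (0.89) for Cd83.

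On the mural side, Inpp4b was most like Casq2 (r = 0.98), a calcium-binding protein of the sarcoplasmic reticulum, Tbx3os1 (0.97) and the sodium channel gene Scn3a (0.96). Gprc5c was most like Tbx3os1 (0.92), Olfr558 (0.91) and Inpp4b itself (0.91), the single case of 1 of the 9 genes among the nearest of another. Mcam was most like Tinagl1 (0.95), Kcnmb1 (0.95) and Mylk (0.91), and Rbpms2 like Kcnmb1 (0.87), Parm1 (0.87) and Des (0.86), with Kcnmb1, a potassium channel subunit of smooth muscle, and the myosin kinase gene Mylk among them.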

How the data were processed

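Each deposited sample was 1 cell. The values deposited are raw read counts of Ensembl genes, not normalized by the authors, who trimmed reads, mapped them to GRCm38 with TopHat2 and counted with featureCounts. Annotation release and strand setting are not given in the sources used here. They also filtered cells by depth, genes, ERCC and mitochondrial share, and by foreign signatures, which limits what other-cell markers can show. Cells that expressed neither Pdgfra nor Pdgfrb had been removed as well. Both genes are part of the marker sums above, which are to that extent set by the choice of cells.

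The 92 ERCC controls (1.82% of counts) were left out, and 46517 genes stayed. The 9 genes and all lists were chosen with earlier results of these data known. The genes named are the 9, up to 4 passing genes of each list with the largest change (up to 2 of the best expressed where none passed), and the 3 nearest by r; Gfpt1, Vcam1, Lamb1, Lamc1, Jam3 and Lama4 were named after their values were seen. Counts were summed per strain and side (3 or more cells) and tested with edgeR 4.0.16 (quasi-likelihood, TMM, filterByExpr with a minimum count of 10, Benjamini-Hochberg) in R 4.3.3. DESeq2 1.42.0, limma 3.58.1, DESeq2 size factors, no filter, a strain block, 10 cells per sum and leaving out strains were alternatives, and the fit was tested on simulated data, where it recovered few of the smaller changes within a class, so a gene that did not pass is not shown to be unchanged. Sums of a strain share a plate, which pairs them (in C57BL6 in part, since many of its fibroblasts came from a plate without mural cells), and their deviations correlated at 0.0227 to 0.191. Since Smart-seq2 reads carry no molecular identifier, zero limits (3 divided by the number of cells, pooled over strains and taken as independent) cover counting error only.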

Additional observations from a re-analysis of the deposited data

Results flagged for a closer look

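Levels of the 9 genes were examined in 54 groups of 4 strains (2 classes and clusters 1, 2, 4 and 8), and in 5 of them 1 strain lay far from the other 3 by Dixon's criterion, where chance gives about 1 in 20 groups. Gprc5c in cluster 1 of C57BL6 was at 65.9 CPM, against 2.35 to 3.02 CPM in the other strains, and rested on 2 of 19 cells. Lsp1 in fibroblasts of PdgfrbGFP was at 363 CPM, against 447 to 452 CPM. Enc1 in cluster 1 of Cspg4dsRED, a sum of 3 cells, was at 85.1 CPM, against 47.6 to 53.6 CPM. Enc1 in cluster 8 of Cspg4dsRED was at 0 CPM in 29 cells, against 0.542 to 0.647 CPM. Rbpms2 in cluster 2 of Cspg4dsRED, a sum of 8 cells, was at 34.9 CPM, against 16.1 to 17.5 CPM, and 1 cell held 94.4% of its counts.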

How the results depend on the processing

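The levels of the classes did not overlap for any of the 9 genes under each alternative run. Since this contrast chose the genes, that and the shares of cells that follow are a description and no support for the contrast. The share of cells with a count lay on the chosen side within each strain for all 9, also at 10 or more counts and without each strain, although across strains the shares at 1 or more counts overlapped for 4. The share of tested genes past the threshold moved. Between fibroblasts and mural cells edgeR called 5.93%, DESeq2 12.7%, limma-voom 9.55% and edgeR without a filter 2.58% (747 against 896 genes, of more tested), and the share was 2.79%, 2.66%, 3.91% and 2.70% without C57BL6, PdgfrbGFP, Cspg4dsRED and Acta2GFP. The balance of directions depended on the method. Genes higher in fibroblasts and in mural cells numbered 525 and 371 in edgeR, 942 and 984 in DESeq2, and 915 and 529 in limma-voom. For cluster 1 the share of 1.33% became 0.53% without a filter (more genes tested), 5.22% with DESeq2, 2.93% with limma-voom, 0.742% with strain as a replicate block, 0.748% with 10 or more cells per sum (the same fit as without Cspg4dsRED), and 0.265%, 0.356%, 0.748% and 0.201% without the same strains. Among clusters 2 to 5 the share of 0.301% (50 genes) became 0.284% without a filter (77 genes, as more were tested), 2.72% with DESeq2, 1.08% with limma-voom, and 0.0117%, 0, 0.133% and 0.0181% without the same strains. For cluster 6 the share of 0.033% became 0.418% without a filter, 2.81% with DESeq2, 0.479% with limma-voom, 0.883% with the replicate block, and 0.144%, 0 and 0.495% without C57BL6, Cspg4dsRED and Acta2GFP. For cluster 8 against cluster 7 the share of 0.194% became 0.379% with DESeq2 size factors, 0.855% without a filter, 3.20% with DESeq2, 1.31% with limma-voom, 0.691% with the replicate block, 0 with 10 or more cells per sum (the same fit as without PdgfrbGFP), and 0, 0.112% and 0.987% without PdgfrbGFP, Cspg4dsRED and Acta2GFP. DESeq2 size factors shifted the median log2 fold change from -0.32 to -0.17 for cluster 6 and from 0.18 to 0.04 for cluster 8, where calls went from 10 higher and 13 lower to 12 and 33. Where edgeR gave 0, genes with p under 0.05 before adjustment numbered 1162 (clusters 2 to 5), 1254 (cluster 6) and 1514 (cluster 8). Fewer sums remain when a strain is left out, and other causes were not tested. A minimum of 10 cells per sum could not be run for cluster 6. The paired fit changed no call among the 9, and among relatives those named with it. Tests within a class rested on 2 to 4 sums a side, some of 3 cells, and low counts leave the values named with them loosely set.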

Other observations

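Of the C57BL6 fibroblasts nearly all came from a pair of plates, one of which also held the mural cells of that strain. On the plate with and the plate without mural cells, Myoc was at 250.6 and 267.7 CPM in fibroblasts, Lsp1 at 474 and 406 CPM, Gfpt2 at 457.7 and 436 CPM, Enc1 at 61.4 and 54.9 CPM, and Cd83 at 49.7 and 75.9 CPM. The share of fibroblasts with a count was 37.7% and 18.7% for Enc1 and 24.3% and 37.5% for Cd83. The plates hold no replicate of each other, so these differences were not tested.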
